A study of Mus musculus with 6 samples.

Results

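Cadherins are calcium-dependent adhesion proteins that bind their own kind on neighbouring cells. The 89 genes described here were taken from the 55401 genes of a count table of the embryonic mouse midface. They are the genes whose symbol is Cdh and a number, or Pcdh and further letters or digits, and whose counts over the 6 libraries sum above 0. Cdh1 (E-cadherin) and Cdh5 (VE-cadherin) were left out, and are used as markers of epithelium and endothelium. The set holds 20 numbered cadherins, 12 non-clustered protocadherins and 57 clustered protocadherins, the last made up of 14 alpha, 22 beta and 21 gamma genes. Just inside the limit were Pcdha8 and Pcdhb1 with 6 counts over the 6 libraries, and just outside it were Cdh16 and Pcdhga10 with 0.

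The libraries came from the frontonasal and maxillary prominences of E10.5 embryos, the tissue that forms the midface. In the 3 mutants (Tfap2Δ/NCKO), 1 copy of Tfap2a and 1 copy of Tfap2b were null in every cell, and the other copy of each gene was floxed and recombined by Wnt1:CRE. Wnt1:CRE acts in pre-migratory neural crest, so both genes were lost in crest-derived cells, and ectoderm, endothelium and other tissue of the mutants kept 1 floxed copy of each. The 3 controls were CRE-negative siblings with any combination of the same Tfap2a and Tfap2b alleles, and all mice were on a mixed background. The comparison asks which of these adhesion genes differ between mutant and control midface. In bulk tissue, loss in the crest and the lower gene dose in other tissue cannot be told apart.

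Library totals were 69844594, 68119668 and 77555252 counts in the mutants, against 75228775, 72512509 and 75213435 in the controls. Tfap2b had 84.2, 75.7 and 77.7 CPM (counts scaled to a common library total) in the mutants, against 90.1, 88.7 and 97.3 in the controls, with no overlap between groups (log2 fold change −0.22, edgeR adjusted p = 0.260). Tfap2a overlapped, at 28.6 to 31.5 CPM in the mutants and 30.5 to 35.1 in the controls. Counts over a whole gene do not single out floxed exons, so these values say little about the genotype labels. All 8 markers of facial crest mesenchyme were detected, summing to 766 to 822 CPM in the mutants and 932 to 970 in the controls. All 8 had log2 fold changes below 0, with 1 (Alx1) passing in edgeR and 2 in DESeq2. The list holds Tfap2b, a targeted gene, and Alx1 and Msx1, which the paper reports as reduced in this comparison. The sum therefore mixes such genes with other markers. Of the other markers, Prrx1, Prrx2 and Six2 were lower without overlap, at log2 fold changes of −0.10, −0.29 and −0.28. Twist1 (−0.20) and Pdgfra (−0.14) overlapped between groups. The part of crest mesenchyme in the values of the members was not tested. Y-linked genes summed to 148 to 156 CPM in the 3 mutants and 148 CPM in control 2, and to 0.080 CPM or less in controls 1 and 3, so sex was not balanced between the groups. The 10 macrophage markers, all detected, summed to 51.4 to 74.9 CPM in the mutants and 31.0 to 41.3 in the controls, all 10 with log2 fold changes above 0 (1 passing in edgeR and 5 in DESeq2), and their part in the values of the members was not tested. The methods speak of mutant and control littermates, which reads as 1 embryo a library, and neither they nor the labels mention pooling. P-values measure the spread between these libraries.

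Classical cadherins span the membrane, and their cytoplasmic tails bind beta-catenin and p120-catenin, which tie them through alpha-catenin to the actin cytoskeleton. Type I members such as N-cadherin hold tissues together strongly, and type II members sort cells into subpopulations. As neural crest leaves the neural tube and later settles in the face, the cadherins on its surface are exchanged. Protocadherins lack the catenin-binding tail. The non-clustered delta protocadherins act in cell movement and axon growth, and the clustered protocadherins give single neurons an identity through the combination of variable exons that each cell uses.

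AP-2 proteins bind a palindrome whose core is GCCNNNGGC. RefSeq promoter windows on GRCm38.p6 (250 bases before to 50 after a gene's start) were available for 22 member genes, and the core was found in 4 of them (18.2%), against 5013 of 27025 genes (18.5%) and 16.6% of 32851 windows. No window was available for Cdh2, Cdh3, Cdh4, Cdh11, Cdh13, Cdh19, Pcdh1 or any clustered protocadherin. The share therefore describes the 22 genes and not the whole set. Since the core is its own reverse complement, a match counts for both strands. The 4 member genes were Cdh6, Cdh18, Cdh22 and Pcdh17. The windows of Cdh6, Cdh9, Cdh10 and Cdh18 are shown, because they are type II genes from 1 stretch of chromosome 15 in which windows with and without the core occur. Cdh12, which lies between Cdh10 and Cdh18, has a window without the core that is not shown. Capitals mark the core, which begins 162 bases before the start of Cdh6 and 18 bases before that of Cdh18, and the windows of Cdh9 and Cdh10 hold none. A match describes the letters in the window and is not a measured binding site. The window of Cdh6 is chr15:13173626-13173925 on the minus strand. Those of Cdh9 (chr15:16728665-16728964), Cdh10 (chr15:18820079-18820378) and Cdh18 (chr15:23036213-23036512) are on the plus strand, and those of Cdh10 and Cdh18 lie inside the annotated gene, at a later start.
Cdh6: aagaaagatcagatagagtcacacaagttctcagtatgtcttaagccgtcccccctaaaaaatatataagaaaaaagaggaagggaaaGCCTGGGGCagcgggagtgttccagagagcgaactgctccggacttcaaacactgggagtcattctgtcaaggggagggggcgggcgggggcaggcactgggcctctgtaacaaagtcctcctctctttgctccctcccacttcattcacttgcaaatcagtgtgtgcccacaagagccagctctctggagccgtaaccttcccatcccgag
Cdh9: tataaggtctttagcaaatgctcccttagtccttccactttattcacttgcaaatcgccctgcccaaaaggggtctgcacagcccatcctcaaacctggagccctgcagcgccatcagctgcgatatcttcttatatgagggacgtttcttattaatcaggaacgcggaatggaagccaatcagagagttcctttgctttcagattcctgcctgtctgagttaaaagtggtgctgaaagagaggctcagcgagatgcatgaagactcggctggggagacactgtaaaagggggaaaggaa
Cdh10: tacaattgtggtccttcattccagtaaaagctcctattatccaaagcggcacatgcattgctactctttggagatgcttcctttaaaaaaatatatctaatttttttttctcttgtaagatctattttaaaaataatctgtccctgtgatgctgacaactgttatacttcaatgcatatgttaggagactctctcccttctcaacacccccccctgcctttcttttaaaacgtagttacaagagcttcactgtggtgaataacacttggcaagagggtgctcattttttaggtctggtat
Cdh18: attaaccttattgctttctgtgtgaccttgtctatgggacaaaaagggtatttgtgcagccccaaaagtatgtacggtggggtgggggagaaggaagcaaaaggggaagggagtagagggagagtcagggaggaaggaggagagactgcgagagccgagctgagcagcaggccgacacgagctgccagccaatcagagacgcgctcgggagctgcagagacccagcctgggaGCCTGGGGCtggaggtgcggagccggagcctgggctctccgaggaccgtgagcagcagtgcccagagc

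No member met both limits set for a call, an adjusted p under 0.05 and an absolute log2 fold change over 0.32, in the edgeR quasi-likelihood test, which 75 of the 89 had enough counts to enter. Over all 19612 genes tested, 64 passed (0.326%), so a count of 0 among 75 is near that background. DESeq2 on the same counts passed 279 genes (1.42%), with 1 member among them, Cdh19. At an unadjusted p below 0.05 in edgeR stood 16 of the 75 members, 7 of them with higher and 9 with lower mutant levels. This was a larger share than the 7.95% of all genes, and the difference in share was not tested. The 16 were 11 of the 30 non-clustered and 5 of the 45 clustered members. All 3 mutants lay above all 3 controls for 6 of the 75 members (7.15% of all genes) and below them for 7 (6.24% of all genes). The replicate number as a block moved the count over all genes to 119, again with no member. Over the 30 non-clustered members tested, 22 log2 fold changes were above 0, with a median of 0.12, whereas 40 of the 45 clustered members tested were below 0 (49.7% of all genes were), with a median of −0.28. Alpha and gamma genes share exons, and the sequences of beta genes are close to each other. Mutants 1 and 2 held the lowest level for 7 and 9 of the 18 beta genes tested. The 40 are therefore not a count of independent genes. Of the 20 gamma genes other than Pcdhgc3, 18 were below 0 over all libraries. Without control 2, 11 were below 0 and 9 above, and the summed gamma cluster had a log2 ratio of 0.004 over all libraries. At an unadjusted p below 0.05 were 2 of 4 type I cadherins (1 higher, 1 lower), 6 of 12 type II cadherins (4 higher, 2 lower), 2 of 4 delta-1 protocadherins (1 higher, 1 lower) and 1 of 5 delta-2 protocadherins (higher), and in the clusters 1 of 6 alpha, 3 of 18 beta and 1 of 21 gamma genes, all 5 lower.

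**Figure D1:**
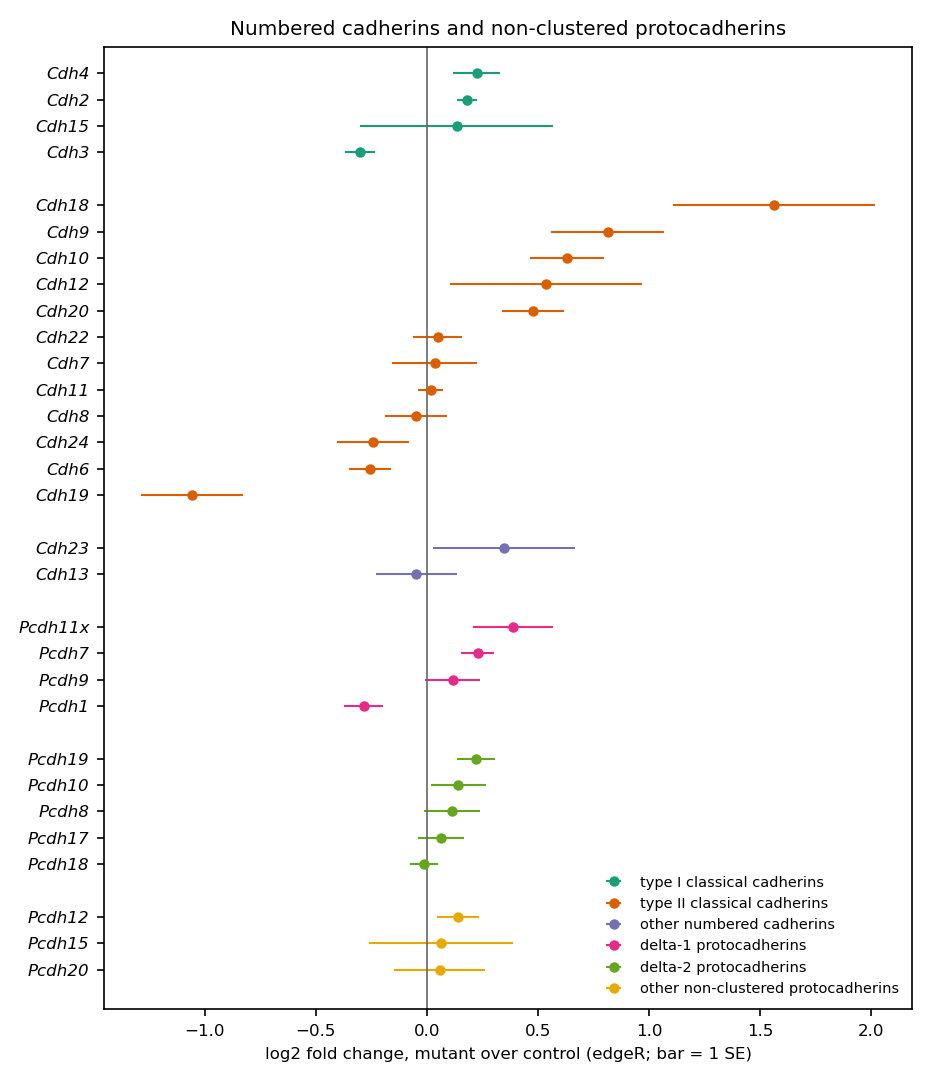
Log2 fold change (mutant over control, edgeR) of the 30 numbered cadherins and non-clustered protocadherins tested, one row per gene, coloured by class. Points are estimates from 3 mutants and 3 controls, and bars are 1 SE. Values run between −1.06 for Cdh19 and 1.56 for Cdh18, with zero change marked by a vertical line.

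The type I cadherins were led by Cdh2 (N-cadherin, chr18:16588877-16809246), the main cadherin of neural tissue and much mesenchyme. Cdh2 had 225, 234 and 228.5 CPM in the mutants, against 196, 205 and 204 CPM in the controls. Every mutant was above every control, and the log2 fold change was 0.18 (SE 0.04, adjusted p = 0.190). Its change was smaller than the fold limit under every alternative tried, and DESeq2 gave an adjusted p of 0.0129. Cdh3 (P-cadherin, chr8:106510891-106557297), a cadherin of surface epithelium, went the other way. Cdh3 had 56.1, 51.8 and 53.5 CPM in the mutants, against 65.2, 61.5 and 72.2 CPM in the controls. Again the groups did not overlap (log2 fold change −0.30, SE 0.07). The adjusted p was 0.150 in edgeR and 0.0057 in DESeq2, where the fold stayed under the limit, and the log2 fold change was −0.19 with Y-linked expression as a covariate.

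The summed markers of tissues that use these cadherins are given here, and their part in the values above was not tested. The 7 neuroepithelium markers, all detected, summed to 334 to 341 CPM in the mutants and 298 to 313 in the controls. The 10 surface epithelium markers, Cdh1 among them and all detected, summed to 363 to 434 CPM in the mutants and 341 to 362 in the controls, and 7 of the 10 had log2 fold changes above 0, with none passing in edgeR (6 of the 10 at an unadjusted p below 0.05) or DESeq2. The 9 neuron markers, all detected, summed to 390, 482 and 585 CPM in the mutants and to 497, 765 and 659 CPM in the controls, with all 9 log2 fold changes below 0, 3 of them at an unadjusted p below 0.05 and none passing in edgeR or DESeq2. In bulk tissue, fewer cells of a type and less RNA per cell cannot be told apart.

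Cdh4 (R-cadherin, chr2:179442431-179899373), found in the developing brain and eye, had 20.9, 26.6 and 25.8 CPM in the mutants, against 21.8, 22.1 and 18.8 CPM in the controls. The groups overlapped, and the log2 fold change was 0.22 (SE 0.11, adjusted p = 0.684), 0.14 with the Y-linked covariate and 0.15 without control 3. Cdh15 (M-cadherin, chr8:122847966-122867397), the cadherin of muscle precursors, had 1.19, 1.84 and 1.19 CPM in the mutants, against 0.49, 1.67 and 1.68 CPM in the controls. Control 1 alone was low, and the log2 fold change of 0.13 (SE 0.44) was well inside the spread. The 7 muscle markers, all detected, summed to 7.05 to 8.90 CPM in the mutants and 4.45 to 8.15 in the controls. Control 1 was lowest there too, but control 3 was next lowest at 5.81 CPM and had 1.68 CPM of Cdh15. The part of muscle cells in the Cdh15 values was not tested.

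Per kilobase of exon, the highest non-clustered members were a pair of classical cadherins and 1 protocadherin. Cdh2 had a level of 28.4 CPM per kb in the mutants and 25.0 in the controls. Cdh11 (OB-cadherin, chr8:102632095-102785642), a cadherin of mesenchyme and bone-forming cells, had 25.8 CPM per kb in the mutants and 25.5 in the controls. Pcdh18 had 21.6 CPM per kb in the mutants and 21.8 in the controls. Next came Cdh3 at 12.3 in the mutants and 15.1 in the controls, Cdh24 at 10.7 and 12.6, and Cdh6 at 5.31 and 6.33, and every other non-clustered member was below 5 CPM per kb in both groups.

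Cdh11 had 224, 231 and 235 CPM in the mutants, against 219, 244 and 219 CPM in the controls. The 6 libraries differed little and the groups overlapped, and the difference was not larger than the spread (log2 fold change 0.02, SE 0.06, adjusted p = 0.981). Cdh24 (chr14:54631231-54641364) had 33.8, 36.6 and 41.4 CPM in the mutants, against 42.7, 35.0 and 54.5 CPM in the controls. Controls 1 and 3, the libraries without Y-linked expression, held the highest levels, and the log2 fold change was −0.24 (SE 0.16, adjusted p = 0.847) over all libraries and 0.08 (SE 0.12) over the 4 libraries with Y-linked expression. It was −0.07 without control 3 and −0.39 without control 2.

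Cdh19 (chr1:110888326-110977584), a type II cadherin of migrating crest and Schwann cell precursors, had the largest difference among members with at least 1 CPM. It had 0.73, 1.20 and 1.19 CPM in the mutants, against 1.86, 2.53 and 2.12 CPM in the controls. Every mutant was below every control, and the log2 fold change was −1.06 (SE 0.23, adjusted p = 0.134). DESeq2 passed it at −1.06 (SE 0.285, adjusted p = 0.014), and no edgeR alternative did, with adjusted p between 0.064 and 0.372. The 6 markers of crest glia, all detected, summed to 74.3 to 101.5 CPM in the mutants and 106 to 133 in the controls. Sox10, the defining factor of that lineage, averaged 11.6 ± 3.64 CPM in the mutants and 33.4 ± 7.56 CPM in the controls (SD, n = 3 each; edgeR adjusted p = 0.175). The part of glial cells in the Cdh19 value was not tested.

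Close to Cdh19 on chromosome 1 lie Cdh7 and Cdh20, the first known from migrating crest in bird embryos and the second a cadherin of the developing brain. Cdh20 (chr1:104768529-104995481) had 9.78, 8.08 and 7.13 CPM in the mutants, against 6.75, 5.52 and 5.68 CPM in the controls. Its groups did not overlap, and its log2 fold change was 0.48 (SE 0.14, adjusted p = 0.306). Cdh7 (chr1:109982431-110140157) had 3.83, 2.44 and 3.15 CPM in the mutants, against 3.55, 2.62 and 3.03 CPM in the controls. These 3 neighbours thus gave values of 3 kinds, lower for Cdh19, higher for Cdh20 and interleaved for Cdh7 (log2 fold change 0.03, SE 0.19).

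On chromosome 15 the order is Cdh6, Cdh9, Cdh10, Cdh12 and Cdh18. Cdh6 (K-cadherin, chr15:13028701-13173675), known from the early crest of bird embryos and from kidney, had 51.6, 40.1 and 52.0 CPM in the mutants, against 58.2, 55.7 and 57.6 CPM in the controls. Mutant 2 was lowest, every mutant was below every control, and the log2 fold change was −0.26 (SE 0.10, adjusted p = 0.509). Without mutant 2 it was −0.14 (SE 0.05). Cdh9 (chr15:16728756-16857094), a synaptic cadherin of the brain, had 1.15, 1.67 and 1.56 CPM in the mutants, against 0.60, 1.05 and 0.85 CPM in the controls. Its groups did not overlap (log2 fold change 0.81, SE 0.25, adjusted p = 0.351). With the Y-linked covariate the value was 0.48, and within the libraries with Y-linked expression 0.47. Cdh9 shares 224 of its exonic bases with the antisense gene Gm49127.

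Cdh10 (chr15:18818947-19014236), another cadherin of the developing brain, had 2.44, 2.77 and 2.74 CPM in the mutants, against 1.91, 1.82 and 1.40 CPM in the controls. No mutant reached down to a control, and the log2 fold change was 0.63 (SE 0.17, adjusted p = 0.229). Cdh18 (chr15:22549022-23474418) was near the detection limit and is named after its values were seen, at 0.42, 0.27 and 0.32 CPM in the mutants and 0.07, 0.10 and 0.17 CPM in the controls (log2 fold change 1.56, SE 0.45, adjusted p = 0.300). Cdh12 (chr15:20449265-21589533) overlapped between groups, at 0.18 to 0.43 CPM in the mutants and 0.17 to 0.29 in the controls. The 4 weakly expressed genes of this neighbourhood had log2 fold changes above 0 and its 1 strongly expressed gene a value below 0, and the windows with the AP-2 core belong to a gene of each kind.

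**Figure D2:**
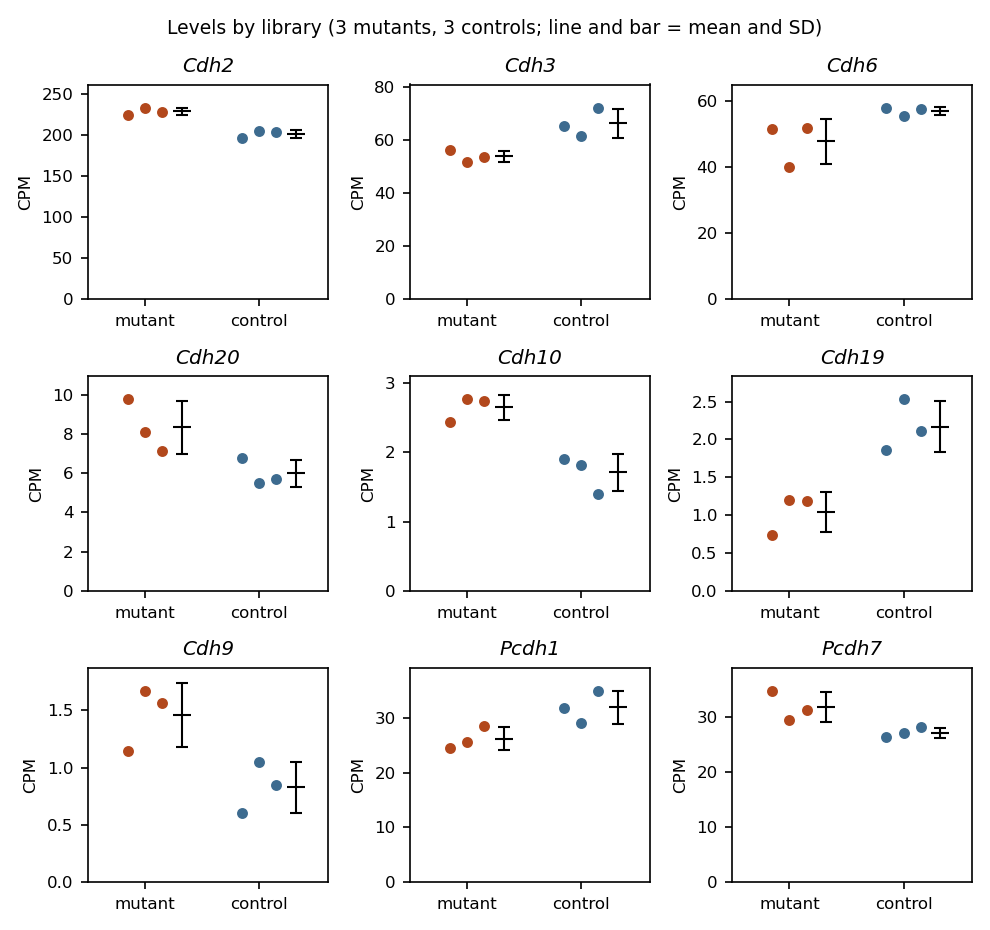
Level (CPM, linear axis from 0) of 9 members by library, 3 mutants at the left and 3 controls at the right of each panel, with the mean and SD beside the points. The 9 shown are the non-clustered members with a mean of at least 1 CPM whose groups do not overlap, so the separation follows from the choice. Over all genes, 7.15% had every mutant above every control and 6.24% every mutant below. Cdh2, Cdh20, Cdh10, Cdh9 and Pcdh7 are higher in the mutants and Cdh3, Cdh6, Cdh19 and Pcdh1 lower, and none passed the adjusted limit in edgeR.

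Cdh8 and Cdh22, type II cadherins of the brain, did not separate the groups. Cdh8 (chr8:99024471-99416471) had 3.30, 3.83 and 4.24 CPM in the mutants, against 4.14, 4.14 and 3.49 CPM in the controls. Cdh22 (chr2:165111507-165234853) had 5.15, 5.33 and 5.30 CPM in the mutants, against 5.09, 5.52 and 4.66 CPM in the controls. Their log2 fold changes were −0.05 (SE 0.14) and 0.05 (SE 0.11).

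A further 4 members carry a Cdh number without being classical cadherins. Cdh13 (T-cadherin, chr8:118283733-119324921), which has a lipid anchor in place of a membrane span, had 3.32, 2.43 and 2.41 CPM in the mutants, against 3.33, 2.53 and 2.57 CPM in the controls. Replicate 1 was highest in both groups, and the log2 fold change was −0.05 (SE 0.18). Cdh23, which joins Pcdh15 in the tip links of inner-ear hair cells, ranged between 0.43 and 0.79 CPM in the mutants and 0.39 and 0.50 in the controls. Pcdh15 ranged between 0.33 and 0.50 CPM in the mutants and 0.29 and 0.50 in the controls. Cdh17 and Cdh26 did not pass the filter on low counts: Cdh17 had 0, 12 and 13 counts in the mutants and 0 in every control, and Cdh26 had 0, 0 and 11 in the mutants and 6, 0 and 0 in the controls.

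Among the delta-1 protocadherins, Pcdh7 and Pcdh1 separated the groups in opposite directions. Pcdh7 (chr5:57717967-58133230), called NF-protocadherin in frog, where it acts in the ectoderm and neural tube, had 34.7, 29.3 and 31.1 CPM in the mutants, against 26.3, 27.0 and 28.0 CPM in the controls. Its lowest mutant was just above its highest control, at a log2 fold change of 0.23 (SE 0.07, edgeR's adjusted p 0.387). The antisense gene 4932441J04Rik covers 2235 of its exonic bases. Pcdh1 (chr18:38185914-38212053), an adhesion protein of epithelia, had 24.5, 25.6 and 28.4 CPM in the mutants, against 31.8, 28.95 and 34.9 CPM in the controls. Mutant 3 and control 2 were nearly level, and the log2 fold change was −0.28 (SE 0.09, adjusted p = 0.334). It was −0.14 with the Y-linked covariate and −0.16 within the libraries with Y-linked expression.

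Pcdh9 (chr14:93013410-93890679), expressed mainly in nervous tissue, overlapped between groups, at 3.83, 4.07 and 4.72 CPM in the mutants and 3.82, 3.79 and 4.05 CPM in the controls. The X-linked Pcdh11x (chrX:120290259-120910619) had 2.20, 1.67 and 2.33 CPM in the mutants, against 1.56, 1.75 and 1.43 CPM in the controls. Only mutant 2 fell among the controls, and the log2 fold change was 0.39 (SE 0.18, adjusted p = 0.679), 0.24 with the Y-linked covariate and 0.23 within the libraries with Y-linked expression. Control 2, the control with Y-linked expression, was the highest of the controls.

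Several delta-2 protocadherins carry binding sites for the WAVE complex, which drives actin branching. Pcdh18 (chr3:49743296-49757325), which takes part in actin-dependent cell movement in zebrafish, had 108.8, 116 and 123 CPM in the mutants, against 122, 119 and 110.1 CPM in the controls. Both groups covered the same range, and the log2 fold change was −0.01 (SE 0.06, adjusted p = 0.989). Pcdh19 (chrX:133582860-133688987), X-linked and the gene of a human epilepsy that affects heterozygous females, had 41.9, 50.1 and 52.9 CPM in the mutants, against 43.3, 40.8 and 40.4 CPM in the controls. Mutants 2 and 3 were the highest libraries and mutant 1 lay among the controls (log2 fold change 0.22, SE 0.09, adjusted p = 0.539). Within the 4 libraries with Y-linked expression it was 0.23 (SE 0.13), and control 2 at 40.8 CPM lay between controls 1 and 3.

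Pcdh17 (chr14:84443563-84539002), which gathers WAVE proteins at axon contacts, had 18.6, 19.97 and 24.1 CPM in the mutants, against 18.3, 20.9 and 20.8 CPM in the controls. Pcdh10 (OL-protocadherin, chr3:45378398-45435623), an organiser of axon growth, had 8.35, 9.98 and 11.8 CPM in the mutants, against 9.01, 9.31 and 8.99 CPM in the controls. Pcdh8 (chr14:79766775-79771312), the relative of the frog protocadherin PAPC that works in gastrulation, had 3.66, 3.11 and 3.17 CPM in the mutants, against 2.99, 3.14 and 3.06 CPM in the controls. In each of these 3 genes a mutant held the highest level, and in each the groups overlapped. Mutant 3 was the highest library for Pcdh17, Pcdh18, Pcdh19, Pcdh10, Pcdh9 and Pcdh11x.

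Of the remaining pair above 1 CPM, Pcdh12 (chr18:38267089-38284402), a protocadherin of endothelium, had 13.3, 14.1 and 15.9 CPM in the mutants, against 12.0, 13.6 and 13.7 CPM in the controls. Its log2 fold change was 0.14 (SE 0.09, adjusted p = 0.849), and mutant 1 fell among the controls. The 8 endothelial markers, Cdh5 among them and all detected, summed to 298 to 310 CPM in the mutants and 271 to 277 in the controls, and their part was not tested. Pcdh20 (chr14:88464743-88471396) had 4.29, 2.41 and 3.52 CPM in the mutants, against 3.55, 3.35 and 2.92 CPM in the controls, and mutants 1 and 2 were the extremes of all 6 libraries.

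The clustered protocadherins lie in a row on chromosome 18. In the alpha and gamma clusters each gene has its own variable exon and all share the constant exons that follow, so that reads from the shared part can be divided between members in more than one way. Levels of single members are uncertain for that reason, and the sum over a cluster is given beside them. Beta genes have no shared exon, but their sequences are close to each other.

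**Figure D3:**
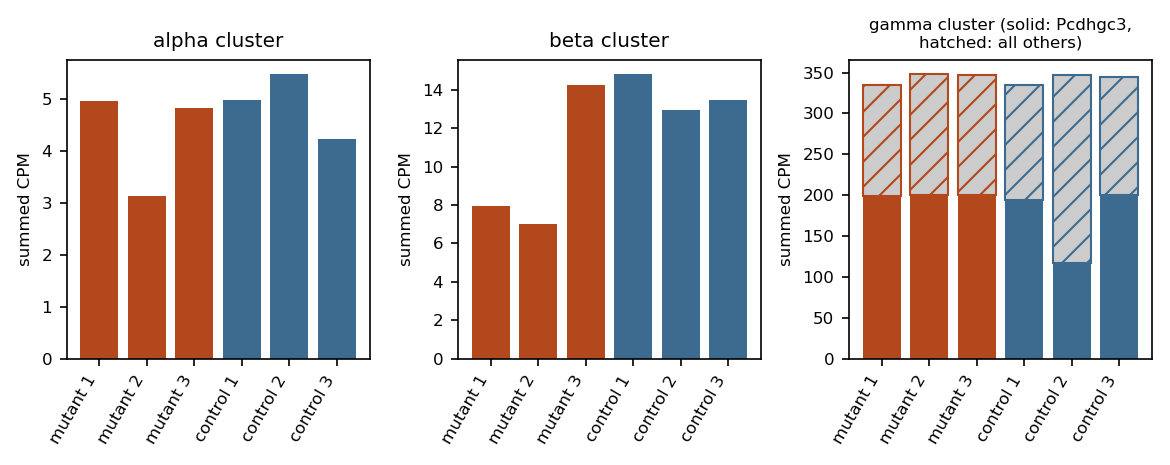
Summed level (CPM, linear axes from 0) of the alpha, beta and gamma protocadherin clusters in each of 3 mutant and 3 control libraries. Mutants 1 and 2 have the lowest beta sums at 7.94 and 7.03 CPM, and in the gamma cluster Pcdhgc3 (solid) takes a smaller share of an equal sum in control 2 (117 CPM) than in the other 5 libraries (194 to 201 CPM).

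The gamma cluster held most of the counts of the clustered genes. Its 21 members summed to 335, 348 and 348 CPM in the mutants, against 335, 348 and 345 CPM in the controls, with overlapping groups and a log2 ratio of 0.004. Pcdhgc3 (chr18:37806364-37841873), one of the C-type genes, had 199, 200 and 201 CPM in the mutants, against 194, 117 and 200 CPM in the controls. Control 2 stood apart, with Pcdhgc3 at 33.6% of the gamma sum, and 57.3% to 59.6% in the other 5 libraries. The 20 other gamma members together had 135, 148.5 and 147 CPM in the mutants, against 141, 231 and 145 CPM in the controls.

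In control 2 the difference was made up by nearly all of these 20 genes, 18 of which had their highest level there, at a median of 1.57 times the median of the other 5 libraries. Over all 6 libraries 18 of the 20 had a log2 fold change below 0, with a median of −0.24, and none passed. Without control 2, 11 were below 0 and 9 above, with a median of −0.02. The log2 fold change of Pcdhgc3 was 0.23 (SE 0.21, adjusted p = 0.909), and 0.02 (SE 0.05) without control 2. It passed the limits only where control 2 carried the comparison, with 0.77 (SE 0.07, adjusted p = 0.0043) when Y-linked expression was a covariate, and 0.76 (SE 0.07, adjusted p = 0.0166) within the 4 libraries with Y-linked expression, where control 2 is the lone control.

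Of the gamma A and B genes, Pcdhgb8 had the smallest p, at 5.38, 4.50 and 6.99 CPM in the mutants and 6.65, 10.6 and 7.04 CPM in the controls. Mutant 3 fell among the controls, and the value over all libraries of −0.52 (SE 0.22, adjusted p = 0.608) was −0.28 (SE 0.18) without control 2 and −0.91 with the Y-linked covariate. Levels of the 18 gamma A and B genes ran between 1.38 CPM (Pcdhga1, control 1) and 29.2 CPM (Pcdhgb6, control 2). The other C-type genes were low, with Pcdhgc4 at 4.80 to 6.52 CPM in the mutants and 6.09 to 7.54 in the controls, and Pcdhgc5 at 1.02 to 1.84 CPM in the mutants and 1.30 to 1.83 in the controls.

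The 22 members of the beta cluster summed to 7.94, 7.03 and 14.3 CPM in the mutants, against 14.8, 12.9 and 13.5 CPM in the controls. Mutants 1 and 2 were low and mutant 3 lay within the range of the controls, and the log2 ratio was −0.495, −0.88 without mutant 3 and −0.31 without mutant 2. The neuron markers had their lowest sums in mutants 1 and 2 as well, at 390 and 482 CPM, with mutant 3 at 585 CPM. The controls had 497, 765 and 659 CPM, and control 1, the lowest of them, held the highest beta sum of the 6 libraries. The part of neurons in the beta values was not tested. All 18 beta members that passed the filter had log2 fold changes below 0, between −1.61 and −0.03, with a median of −0.40, and 3 were below an unadjusted p of 0.05. Mutants 1 and 2 held the lowest level for 7 and 9 of the 18, whereas mutant 3 held the highest for 7. The median was −0.91 without mutant 3, and between 15 and 18 members stayed below 0 in fits that tested all 18. None of the 18 passed.

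Pcdhb22 (chr18:37517871-37524479), the beta member with the highest mean CPM, had 1.59, 1.11 and 2.34 CPM in the mutants, against 2.38, 1.93 and 2.13 CPM in the controls (log2 fold change −0.35, SE 0.26, adjusted p = 0.865). The value was −0.67 without mutant 3, −0.12 without mutant 2 and −0.19 with the Y-linked covariate. Pcdhb21 (chr18:37513621-37518325), the beta member with the smallest p, had 0.49, 0.33 and 0.64 CPM in the mutants, against 1.11, 0.84 and 0.71 CPM in the controls. Its groups did not overlap (log2 fold change −0.87, SE 0.30, adjusted p = 0.454). The 4 beta members under the filter had few counts, and only Pcdhb9 separated the groups, with 5, 4 and 3 counts in the mutants and 8, 14 and 11 in the controls. Pcdhb1 had 0 counts in every mutant and 2, 0 and 4 in the controls.

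The 14 members of the alpha cluster summed to 4.97, 3.12 and 4.83 CPM in the mutants, against 4.98, 5.48 and 4.22 CPM in the controls. Pcdhac2 (chr18:37143503-37187657), a C-type gene and the alpha member with the highest mean CPM, had 3.22, 2.24 and 2.01 CPM in the mutants, against 2.94, 2.48 and 2.53 CPM in the controls, and mutant 1 was the highest library (log2 fold change −0.09, SE 0.20). The symbol Pcdha11 stands for 2 genes of the table. For ENSMUSG00000007440.10, the alpha gene with the smallest p, the mutants had 0, 0.01 and 0.09 CPM and the controls 0.19, 0.15 and 0.17, which is 0 to 7 counts against 11 to 14 counts (log2 fold change −2.17, SE 0.82, adjusted p = 0.522, and −4.25 without mutant 3). For ENSMUSG00000102206.5, levels ranged between 0.07 and 0.83 CPM in the mutants and 0.01 and 1.597 in the controls. Of the 8 alpha members under the filter, the highest count in a library was 54 (Pcdha4, mutant 1).

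**Figure D4:**
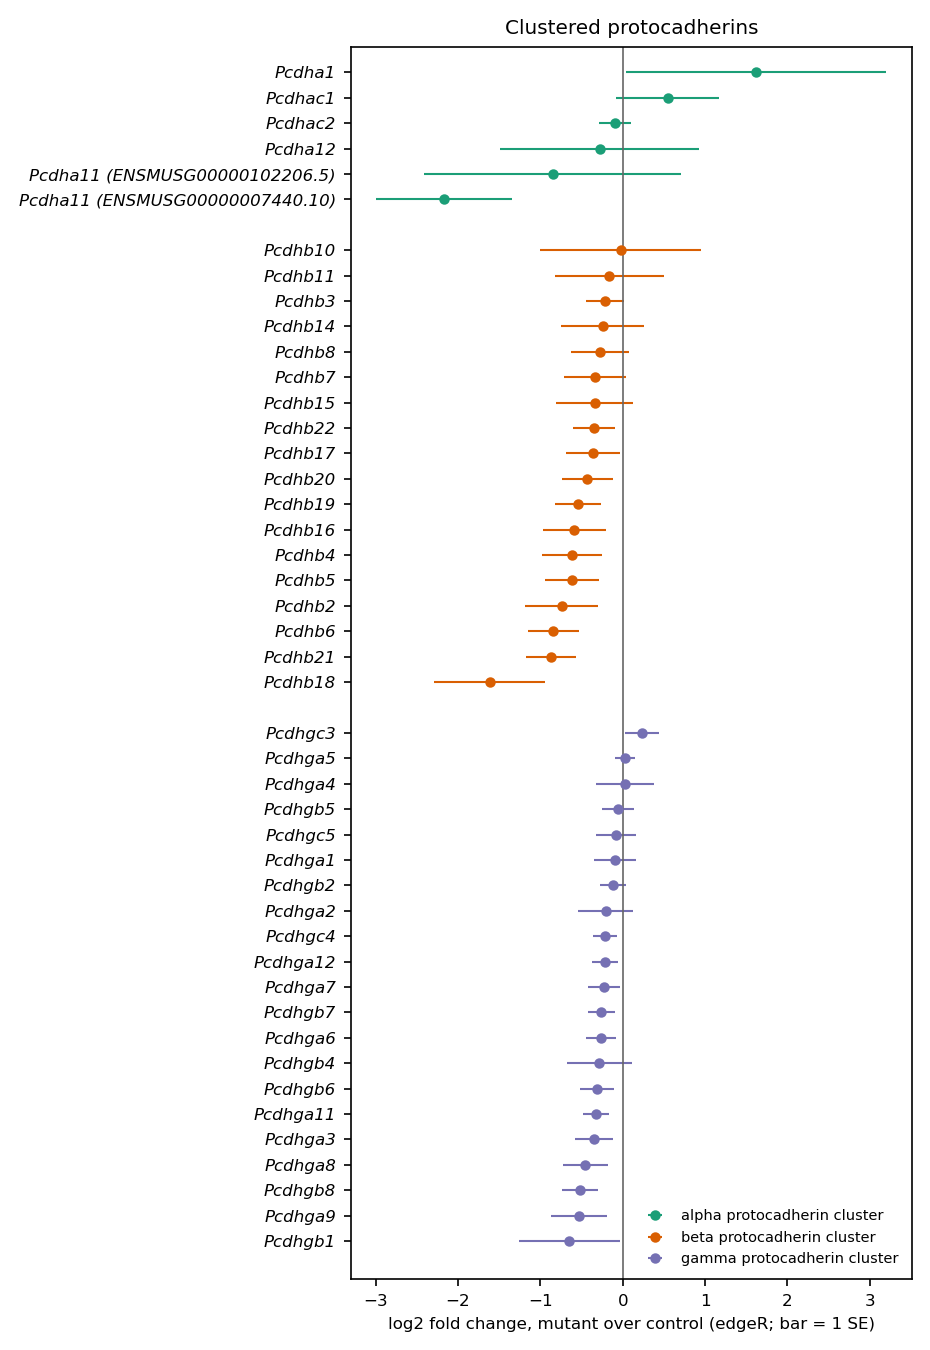
Log2 fold change (mutant over control, edgeR) of the 45 clustered protocadherins tested, one row per gene, coloured by cluster. Points are estimates from 3 mutants and 3 controls, and bars are 1 SE. All 18 beta estimates lie below 0 with wide bars, and the gamma estimates lie between −0.65 and 0.23.

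None of the genes listed as partners or regulators of these molecules passed in edgeR or DESeq2. Of 13 catenins and junction partners, 12 were tested, 0 had an unadjusted p below 0.05, 7 log2 fold changes were above 0 and 5 below, and the median was 0.02, where that over all 19612 genes was 0.001. Ctnnb1 (beta-catenin), the highest, averaged 1453 ± 30.9 CPM in the mutants and 1454 ± 41.2 CPM in the controls (SD, n = 3 each). Of 6 transcription factors that switch cadherins in crest and mesenchyme, 0 had an unadjusted p below 0.05, and Twist1 had the highest mean, with 81.9, 96.1 and 83.8 CPM in the mutants and 99.7, 110.9 and 89.4 CPM in the controls (log2 fold change −0.20, adjusted p = 0.660). Among 11 factors that choose or silence clustered protocadherin promoters, such as Ctcf and the cohesin subunit Rad21, log2 fold changes ran between −0.05 and 0.17, 0 had an unadjusted p below 0.05, and Rad21 averaged 388 ± 8.65 CPM in the mutants and 386 ± 11.6 CPM in the controls. Among 11 intracellular partners of protocadherins, 2 were below an unadjusted p of 0.05, and Nckap1 of the WAVE complex was highest, at 198 ± 2.55 CPM in the mutants and 191 ± 7.66 CPM in the controls.

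Of 23 cadherin-type genes outside the naming rule, among them the Fat, Dchs, Celsr and desmosomal genes, 22 were tested and 1 passed in edgeR, with 0 passing in DESeq2. This was Cdhr2, a cadherin of the intestinal brush border, with 0 counts in each mutant and 27, 21 and 17 in the controls, so that it was at least 6.95-fold lower in the mutants when each of their libraries is set at 3 counts (edgeR adjusted p = 0.0449). In edgeR, Cdhr2 did not pass with the replicate block (adjusted p = 0.0973) or with the Y-linked covariate (0.146). Nor did it pass when any 1 of the 6 libraries was left out (0.0816 to 0.165). DESeq2 returned no adjusted p for it. The highest of the list, Clstn1, averaged 188 ± 4.44 CPM in the mutants and 188 ± 9.82 CPM in the controls. Cdh1 averaged 48.3 ± 2.50 CPM in the mutants and 43.9 ± 2.11 CPM in the controls, with every mutant above every control (log2 fold change 0.14, adjusted p = 0.641), and Cdh5 averaged 74.3 ± 5.23 CPM in the mutants and 69.2 ± 3.22 CPM in the controls (log2 fold change 0.10, adjusted p = 0.835).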

How the data were processed

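Midface RNA from 3 mutant and 3 control libraries was sequenced from a stranded mRNA kit. The authors aligned reads to mm10 with STAR and estimated expression with StringTie, and the deposited values are expected counts per gene, written as whole numbers by prepDE. The strand setting and the prepDE read length are not stated in the labels or methods. In every library fewer genes had 3 counts than 2 or 4, so a count may stand for less than 1 read, and the counts were also tested after division by 2. The columns of the authors' DESeq2 comparison, and a second table that holds only a sleuth comparison of kallisto estimates, were not used.

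Genes were filtered with filterByExpr and tested over the whole table in edgeR 4.0.16 (R 4.3.3) with TMM factors and a robust quasi-likelihood fit without covariates, adjusted by Benjamini-Hochberg over all 19612 genes tested. SE is the absolute log2 fold change over the square root of F. CPM used TMM-scaled totals, and means were over 3 libraries a group. A fold against 0 was set at 3 counts a library, for counting error only. DESeq2 1.42.0 was an alternative, as were RLE factors, other filters, a replicate block, Y-linked expression and leaving out each library. An exact test of 3 against 3 libraries cannot go below 0.1. The edgeR fit was tested on simulated counts with known fold changes. Named members were those called, non-clustered members with a mean of at least 1 CPM, the X-linked members, and per cluster the member with the highest mean CPM and that with the smallest p. Of the partner lists, genes called and the highest were named. Other genes were named after their values were seen.

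The members and all gene lists were chosen with earlier results of these data known. Gene positions are from GENCODE M21 (GRCm38), which held 92 of the 93 gene identifiers that fit the naming pattern, Pcdhgb8 excepted. Same-numbered libraries came from titles that give mutants and controls the numbers 1 to 3. Their deviations from the group means correlated at 0.107, 0.129 and 0.219, against −0.134 to −0.010 for other pairs. Each group was centred on its own mean of 3 libraries, so values above 0 for same-numbered pairs push the others below 0. These values therefore do not settle whether the numbers pair libraries. The numbers were used as pairs in the replicate block alone, and the main fit left them out.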

Additional observations from a re-analysis of the deposited data

How the results depend on the processing

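The count of members that passed was 0 in the replicate block and in each fit that left out 1 library, and 1 in 3 other fits. DESeq2 passed Cdh19 (log2 fold change −1.06), and both fits for Y-linked expression passed Pcdhgc3 (0.77 with a covariate, 0.76 in the libraries that express these genes). The replicate block changed no call of a member. The edgeR p-values given gene by gene are from the fit without it, unless stated. With the block, the edgeR adjusted p was 0.083 for Cdh2, 0.086 for Cdh3, 0.120 for Pcdh1 and 0.221 for Cdh6. Without it, these were 0.190, 0.150, 0.334 and 0.509. Of 33 named members (Cdh18, added after its values were seen, included), 22 kept their sign in every fit. With the Y-linked covariate and in the Y-expressing libraries, the log2 fold change turned to 0.10 and 0.085 for Cdh13, −0.25 and −0.26 for Cdh15, −0.084 and −0.10 for Cdh11, 0.091 and 0.076 for Cdh24, and −0.069 and −0.085 for Cdh22. Pcdhac2 was 0.0041 with the covariate, and Pcdh17 −0.015 in those libraries. Leaving out 1 library gave −0.062 to 0.030 for Pcdh18, −0.052 to 0.14 for Pcdh17, −0.14 to 0.25 for Pcdh20, −0.22 to 0.083 for Cdh13, −0.26 to 0.37 for Cdh15, −0.018 to 0.069 for Cdh11, −0.020 to 0.11 for Cdh22, −0.14 to 0.039 for Cdh8, −0.13 to 0.19 for Cdh7 and −0.32 to 0.041 for Pcdhac2. The log2 ratio of the summed alpha, beta and gamma clusters, a check added after seeing the data, ran over −0.30 to 0.00, −0.88 to −0.31 and −0.01 to 0.02. None of these reversed values passed, and the cause of a reversal was not tested. Sex cannot be told apart from single libraries, since 1 control expresses Y-linked genes.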

Other observations

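Desmosomal cadherins, which join epithelial cells and lie outside the naming rule, were named after their values were seen. Dsg2 averaged 15.4 ± 2.36 CPM in the mutants and 12.8 ± 0.864 CPM in the controls (SD, n = 3 each), with every mutant above every control (log2 fold change 0.27, edgeR adjusted p = 0.595). Dsc2 did likewise at 8.73 ± 0.581 CPM in the mutants and 7.41 ± 0.585 CPM in the controls (log2 fold change 0.24, edgeR adjusted p = 0.608). Among protocadherin partners, Dab1 averaged 31.6 ± 1.77 CPM in the mutants and 27.1 ± 0.297 CPM in the controls. Fez1 averaged 60.2 ± 3.42 CPM in the mutants and 51.7 ± 3.88 CPM in the controls. Both were without overlap and short of the limit (edgeR adjusted p of 0.280 for Dab1 and 0.364 for Fez1). Wasf1 went the other way without overlap, at 49.5 ± 0.573 CPM in the mutants and 52.5 ± 2.81 CPM in the controls (edgeR adjusted p = 0.844). Over all genes, 7.15% had every mutant above every control and 6.24% every mutant below.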
